A study of Mus musculus with 4 samples.

Results

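The C1q macrophages of the growing femoral epiphysis are described here. They were taken by a rule on counts of unique molecular identifiers (UMIs, each standing for 1 captured transcript). Cells with fewer than 500 genes, fewer than 1000 UMIs or more than 15% of UMIs from mitochondrial genes were not used. A member held UMIs of 4 or more of the 8 genes C1qa, C1qb, C1qc, Pf4, Mrc1, Folr2, Lyve1 and Ms4a7. Cells were left out when they held UMIs of 5 or more of the 7 osteoclast genes Acp5, Ctsk, Atp6v0d2, Dcstamp, Ocstamp, Slc9b2 and St18, or any UMI of Cdh5 or Cd79a. The summed UMIs of Col2a1, Col9a1, Col9a2, Col9a3 and Acan had to stay under 3%. Of 49055 cells that passed the quality limits, 1118 met the rule, a share of 2.28%.

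The femoral epiphysis is the end of the thigh bone, a cartilage template in the newborn mouse in which blood vessels, bone and marrow appear as the animal grows. Droplet single-cell RNA sequencing of its cells was carried out in wild-type (WT) mice 7, 8, 10 and 12 days after birth, and each of the 4 days gave 1 library. Tissue was digested with enzymes and red blood cells were removed, per the labels' protocols, whose digestion step speaks of a bowel tumour. How many animals went into a library was not stated in the labels, and with 1 library per day a difference between days cannot be told apart from a difference between libraries, so no test between days was made.

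C1q is the recognition molecule of the classical complement pathway. It is built from the products of C1qa, C1qb and C1qc, is made chiefly by tissue macrophages rather than by the liver, and binds antibody complexes and dying cells. Macrophages of many connective tissues fall into perivascular cells with the hyaluronan receptor Lyve1, the mannose receptor Mrc1 and the folate receptor Folr2, and cells with MHC class II and the chemokine receptor Ccr2, which monocyte-derived cells often carry. In bone and marrow, macrophages clear dying cells and expelled erythroblast nuclei and stand close to the osteoclast lineage, with which they share the growth factor receptor Csf1r.

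The promoters of 3 genes of the rule and of 2 MHC class II genes are shown because the rule's genes mark these cells and the MHC class II genes differed together between days. Each sequence is the 250 bases before the RefSeq transcription start, 5′ to 3′ on the gene's strand, from RefSeq's GRCm38.p6 annotation, an older build than the GRCm39 of the count files. Capitals mark the letters GAGGAA (the core bound by PU.1), TGCTGA (the core bound by MAF factors), TTGCNNAA (a C/EBP motif) and CTGATTGG (the Y box bound by NF-Y), searched on both strands.
C1qb: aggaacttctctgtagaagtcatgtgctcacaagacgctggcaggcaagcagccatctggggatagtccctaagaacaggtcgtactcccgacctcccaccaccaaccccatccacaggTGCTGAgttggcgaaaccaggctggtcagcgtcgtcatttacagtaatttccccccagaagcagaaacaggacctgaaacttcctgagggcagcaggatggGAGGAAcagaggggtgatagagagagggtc
C1qc: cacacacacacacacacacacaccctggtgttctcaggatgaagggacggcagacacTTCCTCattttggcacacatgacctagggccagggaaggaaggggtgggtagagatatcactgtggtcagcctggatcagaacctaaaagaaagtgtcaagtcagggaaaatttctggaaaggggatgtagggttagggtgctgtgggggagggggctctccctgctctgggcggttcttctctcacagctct
Pf4: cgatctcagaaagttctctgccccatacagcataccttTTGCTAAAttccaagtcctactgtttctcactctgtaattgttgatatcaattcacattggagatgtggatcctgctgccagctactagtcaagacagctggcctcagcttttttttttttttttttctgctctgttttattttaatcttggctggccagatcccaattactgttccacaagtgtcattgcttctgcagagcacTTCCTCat
H2-Aa: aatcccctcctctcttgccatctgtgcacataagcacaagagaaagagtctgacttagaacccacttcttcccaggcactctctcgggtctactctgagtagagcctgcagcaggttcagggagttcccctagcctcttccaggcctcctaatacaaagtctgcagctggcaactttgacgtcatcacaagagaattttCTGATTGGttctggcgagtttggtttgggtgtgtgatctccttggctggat
H2-Eb1: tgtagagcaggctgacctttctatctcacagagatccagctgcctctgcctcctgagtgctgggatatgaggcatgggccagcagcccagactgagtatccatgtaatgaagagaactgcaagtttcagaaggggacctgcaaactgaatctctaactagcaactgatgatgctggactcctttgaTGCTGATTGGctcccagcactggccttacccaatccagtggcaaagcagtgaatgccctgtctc
C1qb (chr4:136886201-136886450, minus strand) and C1qc (chr4:136892915-136893164, minus strand) each held GAGGAA, in C1qc as its reverse complement TTCCTC. C1qb also held TGCTGA. Of the other genes of the rule with an entry, Mrc1 held GAGGAA or its reverse complement 3 times. The 2 starts of Folr2 and the 2 of Ms4a7 did not hold it. Each start of Folr2 held TGCTGA, and those of Ms4a7 held none of the motifs marked here. Pf4 (chr5:90772185-90772434, plus strand) held TTCCTC and TTGCTAAA, a match to TTGCNNAA. H2-Aa (chr17:34287824-34288073, minus strand) and H2-Eb1 (chr17:34305617-34305866, plus strand) both held CTGATTGG, which in H2-Eb1 overlapped TGCTGA. Of 32817 promoters of the same length, 23.3% held GAGGAA, 16.1% TGCTGA, 9.57% TTGCNNAA and 3.82% CTGATTGG. These matches describe letters in the windows only.

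The C1q macrophages numbered 70 of 11309 cells on day 7, 323 of 11464 on day 8, 255 of 10028 on day 10 and 470 of 16254 on day 12. Their shares were 0.619% (95% exact binomial interval 0.483 to 0.781) on day 7, 2.82% (2.52 to 3.14) on day 8, 2.54% (2.24 to 2.87) on day 10 and 2.89% (2.64 to 3.16) on day 12. The day 7 share was the lowest and its interval met none of the others, while the intervals of days 8, 10 and 12 overlapped. All intervals in the text cover counting error only, not the spread between animals. Requiring 3 or 5 of the 8 genes kept day 7 lowest, but a requirement of 3 genes put day 10 highest, at 3.93%. Leaving out cells with 3 or more markers of a blood or endothelial lineage at 1000 UMIs left 70, 312, 124 and 393 C1q macrophages, and the day 10 share was then 1.24%. Of the 1118 cells, 27 carried a barcode that was also kept in another library.

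Depth differed between libraries. The C1q macrophages held 8176.5, 5724, 17048 and 8174.5 UMIs per cell on days 7, 8, 10 and 12 as medians, with 2792.5, 2154, 4111 and 3090.5 genes detected. The day 10 cells were the deepest, so shares of cells with a UMI are given after each cell was thinned to 1000 UMIs. Levels are CPM, the UMIs of a gene summed over the C1q macrophages of a library and scaled to a total common to all libraries, in which 1 UMI was worth 1.52, 0.437, 0.195 and 0.205 CPM on days 7, 8, 10 and 12.

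**Figure D1:**
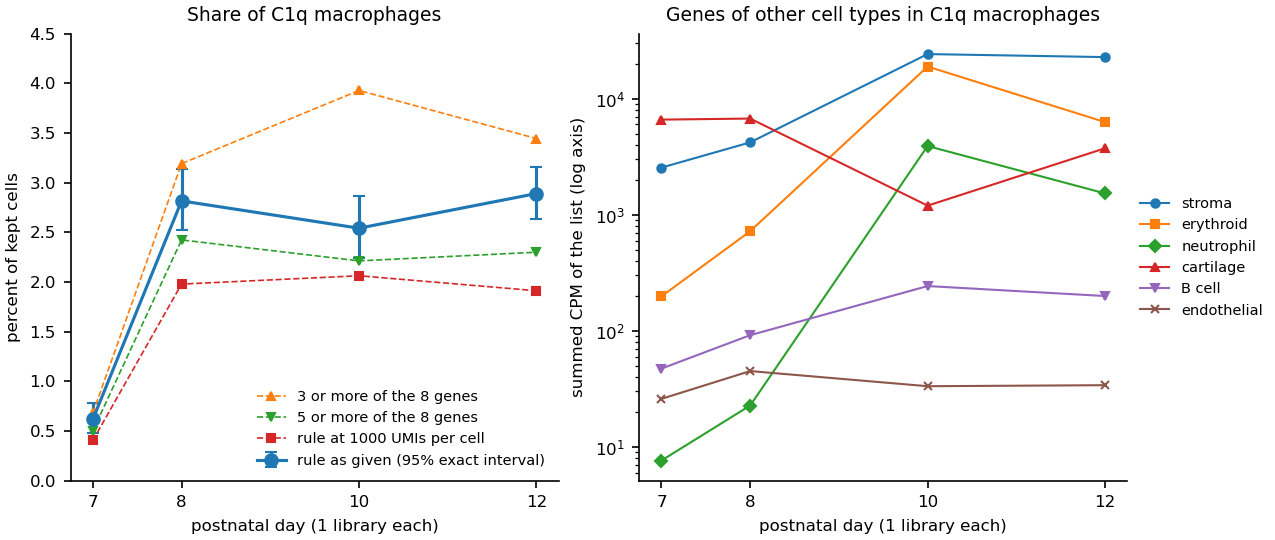
Left, percent of kept cells that were C1q macrophages on days 7, 8, 10 and 12, under the rule as given with 95% exact intervals and under 3 changed rules (dashed); day 7 was lowest under each. Right, summed CPM of gene lists of other cell types in the C1q macrophages (log axis), where stroma, erythroid and neutrophil genes were higher on days 10 and 12 than on days 7 and 8.

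The 8 genes of the rule were chosen on these cells, so their levels are a description. C1qa, C1qb and C1qc encode the 3 chains of C1q. C1qa was at 1231, 1283, 758 and 981 CPM on days 7, 8, 10 and 12. C1qb was at 1774, 1699, 1081 and 1063 CPM, and C1qc at 1876, 1612, 1687 and 1404 CPM. C1qa and C1qb were thus lower on days 10 and 12 than on days 7 and 8, and C1qc was nearly level over days 8 and 10. Pf4, platelet factor 4, which these macrophages share with megakaryocytes, was at 4313, 3618, 4476 and 2577 CPM, the highest of the 8 in each library. Ms4a7, a membrane protein of macrophages, was at 1192, 966, 482 and 595 CPM. Mrc1, the mannose receptor, was at 1180, 960, 1746 and 1012 CPM. Day 10 was the highest library for Pf4 and Mrc1 and the lowest for Ms4a7.

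Lyve1 and Folr2 varied most between libraries among the 8. Lyve1 was at 203, 53.3, 726 and 370 CPM, lowest on day 8 and highest on day 10. Folr2 was at 197, 135, 463 and 236 CPM, in the same order of days. At 1000 UMIs per cell, Lyve1 was seen in 10.0%, 6.19%, 29.8% and 20.4% of C1q macrophages on days 7, 8, 10 and 12, and Folr2 in 17.1%, 13.9%, 33.3% and 19.8%. Cells with cartilage collagens at 10% or more of UMIs, a type that should lack both, were thinned alike. Lyve1 was then seen in at most 0.109% of them and Folr2 in at most 0.435%. The full median depths of these cartilage cells lay between 2695 and 24585.5 UMIs. At full depth each gene was seen in up to 4.55% of them, on day 10, against 52.5% and 67.1% of C1q macrophages. C1qc was seen in 71.4%, 75.5%, 66.7% and 70.6% of C1q macrophages at 1000 UMIs, against at most 2.27% of those cartilage cells.

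Macrophage genes that the rule did not use were present. Csf1r, the receptor for the growth factor CSF1, had a UMI in 87.1%, 77.4%, 86.3% and 91.3% of C1q macrophages at full depth. Adgre1, which encodes the F4/80 antigen, had a UMI in 80.0%, 77.1%, 83.9% and 85.7%. At 1000 UMIs Csf1r was seen in 32.9%, 29.4%, 45.5% and 48.3% of C1q macrophages, against 0.917%, 1.14%, 2.27% and 0.978% of the cartilage cells. The macrophage part of the name therefore had its markers in every library. The word resident was not checked, since counts do not show where a cell came from, and 2 genes often used for it were rare: Timd4, a receptor for dying cells, was seen in 0.929% to 2.86% of C1q macrophages at 1000 UMIs and Siglec1, the sialoadhesin of marrow macrophages, in 0 to 0.929%.

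The cells just inside the rule differed from those well inside it. On day 10, Csf1r had a UMI in 39.4% of the 33 cells with exactly 4 of the 8 genes, in 25.9% of the 139 cells with 3, which the rule left out, and in 100% of the 101 cells with all 8. On days 7, 8 and 12 it had a UMI in 76.9%, 55.6% and 82.3% of cells with 4 genes and in 85.7%, 48.8% and 72.2% of cells with 3. Cells on either side of the limit were therefore alike in Csf1r on these days, and day 10 held the most cells near it without the receptor.

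RNA of other cell types was present in the C1q macrophages and differed between libraries. The summed level of 11 erythroid genes was 198, 722, 18943 and 6293 CPM on days 7, 8, 10 and 12, and that of 13 neutrophil genes 7.62, 22.7, 3912 and 1528 CPM. The stroma list summed to 2550, 4207, 24269 and 22854 CPM, of which the bone collagen Col1a1 made up 186, 770, 11747 and 11403 CPM. The cartilage list went the other way, with 6608, 6749, 1198 and 3741 CPM. The same genes were abundant in the rest of each library, where Col1a1 was at 2873, 7541, 45153 and 43854 CPM. Lists of other lineages were low, with B cell genes at 47.2 to 243 CPM, T and NK cell genes at 0.873 to 44.0 CPM, endothelial genes at 25.9 to 45.0 CPM and mast cell and basophil genes at 0 to 25.6 CPM. The defining genes Klf1, Camp and Retnlg were at 0 on day 7, as were Cd3e and Cldn5. Cells with fewer than 3 markers of any other lineage numbered 0, 1, 4 and 5 on days 7, 8, 10 and 12 at full depth, so no subset free of this RNA could be compared. The part of this RNA in the results below was not tested, and doublets were not removed by a caller.

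Day 12 was set against day 7 over 11064 genes with 20 or more UMIs in both sums together, with 1 UMI added to each sum. Of these, 18.3% were 2-fold or more higher on day 12 and 6.87% were 2-fold or more lower. At 1.5-fold, the limit used for gene lists, 34.4% were higher and 14.2% lower, and the median log2 ratio over all genes was 0.27. Both late libraries (days 10 and 12) were 2-fold or more above both early libraries (days 7 and 8) for 7.55% of 12852 genes and below them for 3.38%.

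MHC class II genes, which present peptides to T cells, were higher on the later days. H2-Aa, an alpha chain, was at 65.5, 102, 466 and 539 CPM on days 7, 8, 10 and 12, 8.05-fold higher on day 12 than on day 7. H2-Eb1, a beta chain, was at 32.0, 55.0, 352 and 440 CPM. Cd74, the invariant chain that guides MHC class II through the cell, was at 213, 289, 501 and 797 CPM. The days did not overlap by counting interval for any pair of an early and a late library in these 3 genes. Ciita, the coactivator that switches these genes on, was at 1.52, 3.06, 10.5 and 9.01 CPM. Of 11 measured genes of antigen presentation, 7 were 1.5-fold or more higher on day 12 than on day 7 and 2 lower, against 34.4% and 14.2% of all genes, with a median log2 ratio of 1.55. The 2 lower genes were the costimulators Cd86, at 328, 528, 329 and 207 CPM, and Cd40, at 25.9, 10.0, 14.6 and 9.82 CPM. The list median was 0.57 when the rule was applied to cells thinned to 1000 UMIs, 0.96 with at least 5 of the 8 genes and 0.95 as a mean over cells. In the rest of the library H2-Aa was also higher on later days, at 5.33, 39.6, 115 and 160 CPM.

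Most genes of the monocyte list were higher on day 12 than on day 7, and their summed level was highest on day 10, at 959, 1177, 1781 and 1680 CPM on days 7, 8, 10 and 12. Ccr2, the receptor through which monocytes leave the marrow, was at 38.1, 73.8, 178 and 292 CPM, 7.37-fold higher on day 12 than on day 7. Cells near the limit of the rule carried it more often than cells with all 8 genes in each library. On day 12 it had a UMI in 60.4% of C1q macrophages with exactly 4 of the 8 genes, 54.4% with 5, 38.2% with 6, 17.02% with 7 and 6.59% with all 8, and in 53.3% of the cells with 3, which the rule left out. Plac8 was at 10.7, 3.93, 82.2 and 105 CPM. The integrin ligand and matrix gene Fn1 was at 320, 340, 699 and 599 CPM. In the rest of the library Ccr2 was also higher on later days, at 1.37, 8.03, 56.2 and 101 CPM. Plac8 was likewise higher there, at 13.9, 41.9, 249 and 302 CPM, while Fn1 was at 1846.5, 1624, 1696 and 1202 CPM. Plac8 and Fn1 were thus more abundant there than in the C1q macrophages in every library. Of 14 measured genes of the monocyte list, 12 were 1.5-fold or more higher (34.4% of all genes) and 1 lower (14.2%). Their median log2 ratio was 2.14. The lower gene was Thbs1, a secreted matrix protein, at 445, 622, 76.3 and 168 CPM. Chil3 and Hp of this list were at 0 on days 7 and 8, and neutrophils carry them too. The neutrophil list stood at 3912 and 1528 CPM on days 10 and 12, as given above, and its part in these values was not tested.

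**Figure D2:**
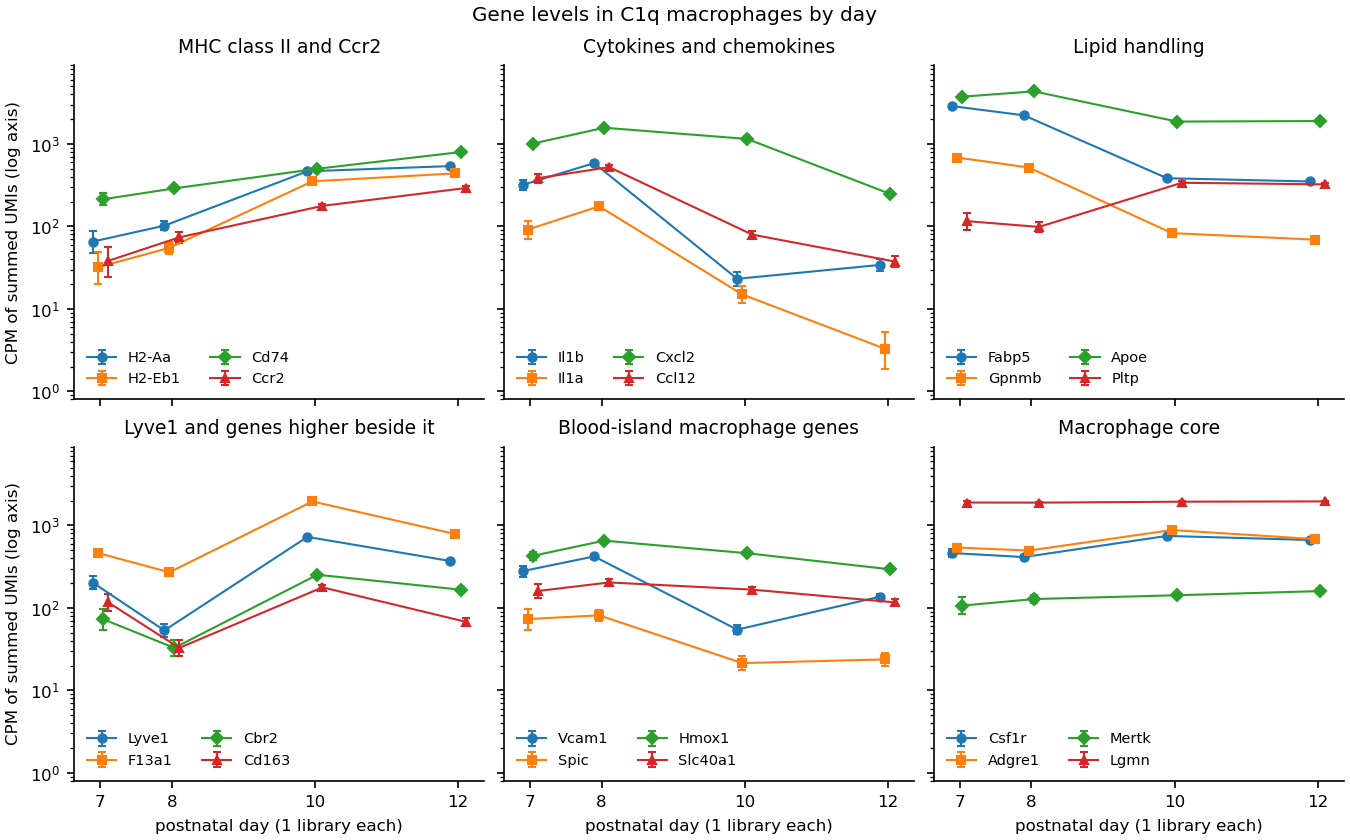
CPM of summed UMIs of the C1q macrophages (log axes) on days 7, 8, 10 and 12, 1 library each, with 95% exact Poisson intervals as bars, in 6 groups of genes. MHC class II genes and Ccr2 were higher on days 10 and 12, Il1b, Il1a, Ccl12, Fabp5 and Gpnmb were lower, and Csf1r, Adgre1, Mertk and Lgmn moved by less than 2-fold between days 7 and 12.

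Inflammatory cytokines were higher on the early days. Il1b, which encodes interleukin-1 beta, was at 319, 586, 23.2 and 34.2 CPM on days 7, 8, 10 and 12, 9.31-fold lower on day 12 than on day 7. Il1a was at 91.4, 175, 14.99 and 3.27 CPM. Tnf was at 76.2, 104, 36.8 and 16.6 CPM. Both late libraries lay below both early libraries for these 3 cytokines. Of 15 measured inflammatory genes, 13 were 1.5-fold or more lower on day 12 (14.2% of all genes) and none higher (34.4%). Their median log2 ratio was -1.39. The exceptions were Nfkbia, an inhibitor of NF-kB, at 901, 1281, 671 and 708 CPM, and Tlr4, the receptor for bacterial lipopolysaccharide, at 70.1, 86.9, 111 and 97.6 CPM. Day 10 over day 7 gave a median of -0.77, so the list was nearer to day 7 in that library. Il1b in the rest of the library was at 15.6, 70.9, 13.01 and 35.4 CPM, without the gap between early and late days.

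Chemokines that attract monocytes had the same pattern with more steps. Ccl2 was at 764, 939, 551 and 156 CPM, Ccl7 at 668, 880, 362 and 85.1 CPM and Ccl12 at 384, 523, 79.6 and 37.5 CPM. All 3 signal through Ccr2. In the rest of the library Ccl2 was at 17.2, 68.5, 23.6 and 14.1 CPM, Ccl7 at 51.0, 69.0, 8.02 and 2.77 CPM and Ccl12 at 2.81 CPM at most, so Ccl7 was lower on later days there too. The neutrophil attractant Cxcl2 was at 1009, 1573, 1150 and 248 CPM, low on day 12 alone, and its log2 ratio to day 7 was 0.19 with day 10 and -2.03 with day 12. Some members of the family were not part of this pattern. Ccl8 was at 64.0, 77.3, 94.8 and 60.4 CPM, and Ccl24, a ligand of eosinophil receptor Ccr3, was at 30.5, 18.3, 91.1 and 70.4 CPM. Cx3cr1, the fractalkine receptor, was at 274, 420, 245 and 289 CPM. Of 21 measured chemokines and receptors, 11 were 1.5-fold or more lower on day 12 (14.2% of all genes) and 4 higher (34.4%). Their median log2 ratio was -0.83.

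Heat shock genes showed some of the widest gaps between early and late libraries. Hspa1a, an inducible chaperone, was at 719, 1243, 32.1 and 19.2 CPM and Hspa1b at 483, 995, 5.84 and 5.73 CPM. The immediate early gene Fos did not share this, at 1306, 1605, 4323 and 2329 CPM, nor did the phosphatase Dusp1, at 352, 447, 1690 and 594 CPM. Of 19 measured genes of dissociation stress, 10 were 1.5-fold or more lower on day 12 (14.2% of all genes) and 4 higher (34.4%). Their median log2 ratio was -0.68 for day 12 and -0.03 for day 10. The chaperones were also high on early days in the rest of the library, where Hspa1a was at 312, 674, 9.66 and 14.9 CPM, so their pattern was not limited to macrophages. The part of these stress genes in the cytokine values was not tested.

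Lipid handling genes were high on the early days. Fabp5, a fatty acid carrier, was at 2873, 2225, 384 and 351 CPM, 8.19-fold lower on day 12 than on day 7. Gpnmb, a membrane glycoprotein of lipid-laden macrophages, was at 684, 518, 82.9 and 69.2 CPM. Apoe, the lipoprotein that carries cholesterol out of macrophages, was at 3744, 4339, 1869 and 1896 CPM. The lipid droplet coat Plin2, at 843, 819, 369 and 349 CPM, and galectin 3 (Lgals3), at 2067, 1904, 806 and 605 CPM, had the same split of early against late libraries. Pltp, which transfers phospholipids, was the reverse, at 116, 98.7, 339 and 324 CPM. Trem2, a lipid receptor, was at 192, 206, 161 and 168 CPM. Of 18 measured genes of this list, 9 were 1.5-fold or more lower on day 12 (14.2% of all genes) and 1 higher (34.4%). Their median log2 ratio was -0.68. Fabp5 in osteoclasts was at 869, 167 and 145 CPM over days 8, 10 and 12, so it was lower there too, while the rest of the library held 51.4, 126, 76.7 and 73.3 CPM. Apoe and Lgals3 were lower on later days in the rest of the library as well, at 279, 285, 96.6 and 144 CPM and at 360, 366, 137 and 204 CPM.

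Scavenger receptors split by gene. Marco, which binds bacteria and particles, was at 184, 58.9, 3.11 and 6.75 CPM, but only 10.0% of cells on day 7 and 9.60% on day 8 had a UMI of it at full depth. Msr1, a receptor for modified lipoproteins, was at 547, 424, 219 and 208 CPM, and Olr1 at 110, 58.1, 36.4 and 7.37 CPM. Stab1, which takes up growth factors and dying cells, was at 221, 194, 334 and 260 CPM, and the lectin Clec10a at 10.7, 21.0, 61.7 and 54.6 CPM. Of 22 measured genes, 9 were 1.5-fold or more lower and 6 higher, against 14.2% and 34.4% of all genes.

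Complement genes outside C1q showed smaller gaps. The anaphylatoxin receptors C3ar1 and C5ar1 were at 552, 454, 544 and 472 CPM and at 151, 154, 248 and 197 CPM. Properdin (Cfp), which stabilises the alternative pathway convertase, was at 203, 231, 192 and 246 CPM. C3 itself was low, at 32.0, 35.4, 11.3 and 28.9 CPM. Of 16 measured complement genes, 4 were 1.5-fold or more higher and 3 lower, against 34.4% and 14.2% of all genes. Vsig4, a complement receptor of tissue macrophages, was at 10.7, 0.873, 52.0 and 66.9 CPM.

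Genes of long-lived tissue macrophages differed by gene. F13a1, coagulation factor XIII, was at 463, 270, 1951 and 783 CPM. Cbr2, a carbonyl reductase, was at 73.2, 32.7, 252 and 166 CPM. Cd163, the haemoglobin receptor, was at 117, 32.7, 177 and 68.0 CPM, lowest on day 8 as Lyve1 was. Of 15 measured genes, 6 were 1.5-fold or more higher on day 12 and 4 lower, a share of higher genes near the 34.4% of all genes, with a median log2 ratio of 0.55 that was 1.16 for day 10 over day 7. Igf1, a growth factor for bone and muscle, was at 518, 555, 533 and 309 CPM.

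Genes of macrophages in erythroblastic islands, where red cells mature around a macrophage, were mostly lower or level on summed counts. Vcam1, which holds erythroblasts, was at 279, 420, 54.5 and 137 CPM on days 7, 8, 10 and 12. As a mean over cells its log2 ratio of day 12 to day 7 was 0.17, against -1.03 on summed counts, so its direction rested on how cells were weighted. Spic, the transcription factor of iron-recycling macrophages, was at 73.2, 81.2, 21.4 and 23.7 CPM. Hmox1, which breaks down heme, was at 427, 653, 460 and 294 CPM, and Slc40a1, which exports iron, at 160, 203, 166 and 116 CPM. Of 12 measured genes, 4 were 1.5-fold or more lower and 1 higher, against 14.2% and 34.4% of all genes. Haemoglobin UMIs in the same cells were highest on day 10, when Vcam1 and Spic were lowest.

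Genes typical of early life were lower on later days. Dlk1, an imprinted Notch-family ligand, was at 223, 165, 86.4 and 35.6 CPM, H19 at 283, 191, 232 and 106 CPM and the metallothionein Mt1 at 817, 780, 404 and 289 CPM. Lin28b, an RNA-binding protein that blocks let-7 processing, was at 12.2, 16.6, 2.92 and 2.66 CPM. Igf2bp3 ran the other way, at 131, 137, 175 and 190 CPM. Of 13 measured genes, 10 were 1.5-fold or more lower on day 12 (14.2% of all genes) and none higher (34.4%). Their median log2 ratio was -1.36. Dlk1 was more abundant in the rest of each library than in the C1q macrophages, at 2245, 1357, 258 and 304 CPM, and also lower on later days. H19, Mt1 and Lin28b were lower there on later days too. H19 was at 2119.5, 1700, 599 and 824 CPM and Mt1 at 1536, 684, 211 and 163 CPM. Lin28b was at 41.8, 15.7, 2.34 and 1.53 CPM. The pattern of these genes was thus not limited to macrophages, and the part of that RNA in their values was not tested.

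Core, lysosome and transcription factor lists had medians near 0 with members on both sides. Of 18 core macrophage genes, 1 was 1.5-fold or more higher on day 12 and 7 were lower, against 34.4% and 14.2% of all genes, with a median log2 ratio of -0.20. Lgmn, a lysosomal protease, was at 1894, 1888, 1939 and 1955 CPM, Lyz2 at 3024, 2863, 2869 and 2861 CPM and Mertk, a receptor for dying cells, at 107, 127.9, 142 and 160 CPM. Csf1r was at 462, 413, 746 and 666 CPM and Adgre1 at 540, 495, 879 and 682 CPM. Cd14 and Fcgr1 were lower on later days, at 174, 214, 135 and 73.7 CPM and at 149, 124, 75.5 and 55.7 CPM. Of 21 lysosome genes 1 was higher and 6 lower, with a median of -0.02. Among 25 transcription factors 9 were higher and 8 lower, against the same shares of all genes. Maf was at 818, 616, 1493 and 845 CPM and Bhlhe41 at 101, 51.5, 34.8 and 17.2 CPM.

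Genes of the osteoclast lineage that the rule did not use were level or higher. Tnfrsf11a, the receptor RANK that starts osteoclast formation, was at 110, 95.6, 208 and 295 CPM, and Nfatc1, the transcription factor it induces, at 62.5, 89.5, 99.9 and 211 CPM. Of 12 measured genes, 5 were 1.5-fold or more higher on day 12 and none was lower, against 34.4% and 14.2% of all genes. Their median log2 ratio was 0.16, below the 0.27 of all genes. Nfatc1 was higher in the rest of each library than in the C1q macrophages, at 331, 274, 145 and 301 CPM. Ctsk, a collagen-cutting protease that the rule did use, was at 39.6, 20.1, 93.8 and 74.5 CPM. Osteoclasts of days 8, 10 and 12 held it at 8996, 5613 and 5870 CPM. St18, also used by the rule, had a smaller gap. It was at 177 and 315 CPM on days 10 and 12, against 733 and 723 CPM in osteoclasts.

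Of 19 measured interferon-induced genes, 13 were 1.5-fold or more lower on day 12 than on day 7 (14.2% of all genes) and 1 higher (34.4%). Their levels were small: Rsad2 was at 44.2, 7.86, 16.0 and 11.9 CPM and Isg15 at 19.8, 12.2, 7.20 and 8.19 CPM. Ifngr1, a receptor chain for interferon gamma, was at 79.2, 97.3, 156 and 250 CPM. Pdgfb, a growth factor for pericytes, was at 16.8, 31.9, 28.2 and 92.1 CPM and Gdf15, a stress cytokine, at 128.02, 117, 36.4 and 9.21 CPM. Of the 18 growth factor ligands measured, 5 were 1.5-fold or more higher on day 12 (34.4% of all genes) and 8 lower (14.2%).

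**Figure D3:**
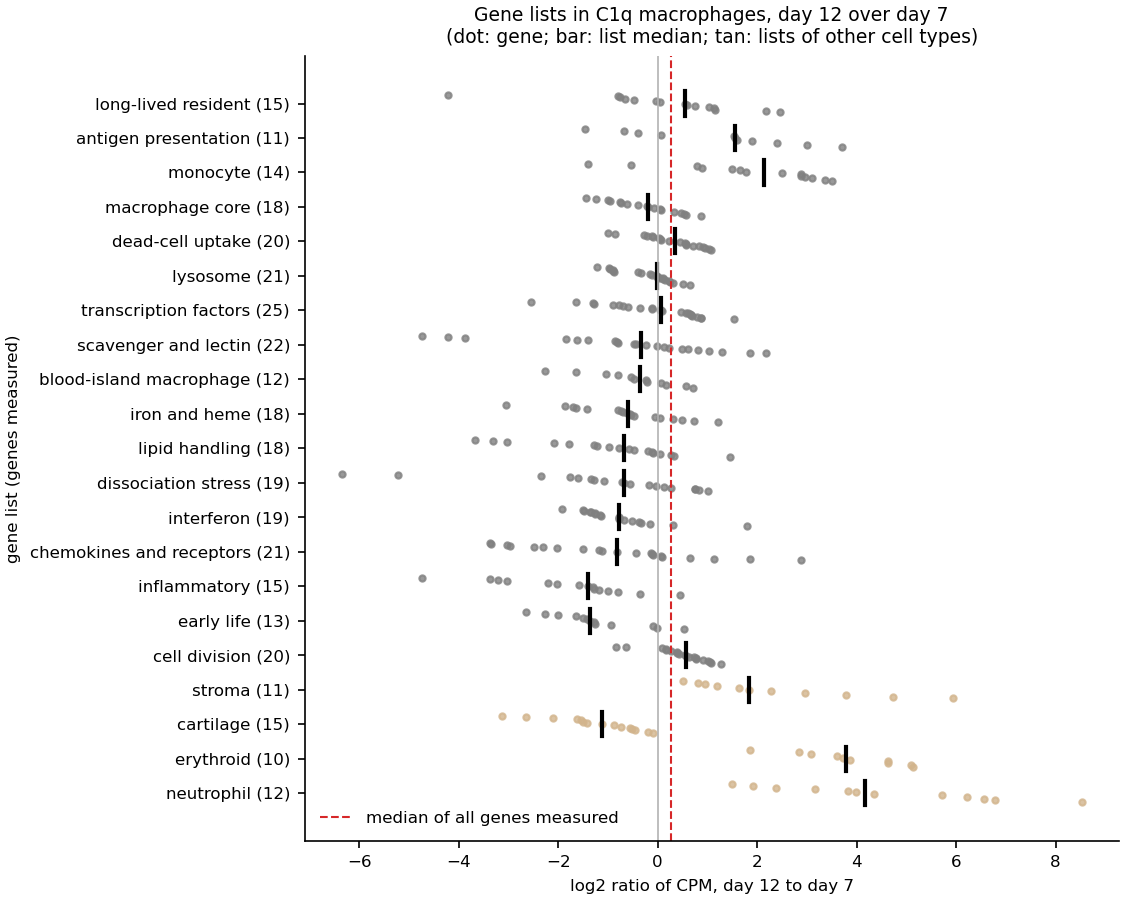
Log2 ratio of CPM, day 12 over day 7, for each measured gene (dot) of 21 lists in the C1q macrophages, with list medians (bars) and the median of all 11064 genes (dashed, 0.27). Lists of monocyte and antigen presentation genes lay to the right with medians of 2.14 and 1.55, inflammatory and early life lists to the left with -1.39 and -1.36, and erythroid, neutrophil and stroma genes (tan) further right than most macrophage lists.

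A rule of size named the genes with the widest day 12 to day 7 ratios among those whose late libraries both lay 2-fold beyond both early ones. The 10 highest were genes of neutrophils (S100a9, Camp, Stfa1, Retnlg, Cstdc5, S100a8, Cstdc4) and of matrix or stroma (Thbs4, Col1a1, Lox). S100a8 was at 4.57, 12.2, 1715 and 453 CPM in the C1q macrophages and at 12.1, 88.8, 3346 and 783 CPM in the rest of the library. The 10 lowest were Saa3, Hspa1b, Hspa1a, Ubb-ps, Marco, Il1a, Dnmt3aos, B4galnt2, Hilpda and Exoc3l2. Hilpda, which blocks lipolysis and is induced by hypoxia, was at 283, 227, 14.99 and 15.4 CPM. Saa3, an acute-phase protein, was at 47.2, 4.37, 0.195 and 0 CPM, with UMIs in 2.86% of day 7 cells. Of the 970 genes higher and 435 lower in both late libraries, 77 and 148 had a predicted name or no symbol.

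Many C1q macrophages held UMIs of cell division genes. At 1000 UMIs, 34.3%, 41.2%, 43.5% and 40.2% of them on days 7, 8, 10 and 12 held UMIs of at least 2 of 20 such genes, against 6.68%, 10.6%, 4.55% and 9.24% of the cartilage cells. Ccr2 monocytes held them in 51.7% and 32.5% of cells on days 10 and 12. Osteoclasts held them in 25.9%, 20.9%, 58.7% and 45.8% of cells on days 7, 8, 10 and 12. Both groups were thus above the C1q macrophages on day 10. The proliferation marker Mki67 was at 168, 227, 245 and 248 CPM. Of the 20 genes, 9 were 1.5-fold or more higher on day 12 than on day 7 and 2, Tyms and Ccnb2, were lower. Over all genes these shares were 34.4% and 14.2%.

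The share of C1q macrophages with MHC class II was highest on day 12. At 1000 UMIs, at least 2 of H2-Aa, H2-Ab1, H2-Eb1 and Cd74 were seen in 5.71% (interval 1.58 to 14.0) of C1q macrophages on day 7, 4.95% (2.86 to 7.92) on day 8, 5.49% (3.03 to 9.04) on day 10 and 13.6% (10.6 to 17.1) on day 12. The day 12 interval lay above those of days 8 and 10 and overlapped that of day 7. The cartilage cells had 0 to 0.326%. Ccr2 was more frequent in cells with MHC class II, although on day 12 only 36 of its 64 cells had Ccr2 and 50 cells with Ccr2 lacked MHC class II. On day 12, Ccr2 was seen in 56.3% of the 64 cells with MHC class II (43.3 to 68.6) and in 12.3% of the 406 cells without it (9.28 to 15.9). On day 10 it was seen in 71.4% of 14 such cells and in 3.32% of 241 cells without MHC class II, and on day 8 in 50.0% of 16 and in 6.19% of 307. The intervals of cells with and without MHC class II did not overlap on these 3 days.

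Lyve1 and MHC class II seldom met in a cell. Lyve1 was seen in 1.56% of the 64 day 12 cells with MHC class II and in 23.4% of the 406 cells without it. On days 7, 8 and 10 it was seen in none of the 4, 16 and 14 cells with MHC class II, which allows up to 60.2%, 20.6% and 23.2% by the exact interval. Folr2 was likewise seen in none of the 64 cells and in 22.9% of the 406 on day 12. C1qc was seen in 42.2% of the cells with MHC class II and in 75.1% of those without it.

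Splitting the cells by Lyve1 separated more genes than Folr2 and MHC class II. The split, chosen after the values were seen, set cells with a Lyve1 UMI at 1000 UMIs beside the other C1q macrophages of the same library. There were 7, 20, 76 and 96 cells with Lyve1 on days 7, 8, 10 and 12. The remaining 63, 303, 179 and 374 cells are called cells without it. At full depth Lyve1 was seen in 17.1%, 11.5%, 52.5% and 30.2% of all C1q macrophages. The side called without Lyve1 therefore also held cells with its UMIs. Day 7 was left out of the count of genes. Of 8418 genes, 1.28% were 2-fold or more higher in cells with Lyve1 in each of days 8, 10 and 12, and 1.02% were 2-fold or more lower. Median depth in cells with Lyve1 was 3559.5, 19144 and 7785.5 UMIs on these days, against 5879, 16350 and 8514.5 UMIs in cells without it, so neither side was deeper throughout. The neutrophil list summed to 0, 293 and 1340 CPM in cells with Lyve1 and to 23.6, 5379 and 1568 CPM in cells without it.

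Cells with Lyve1 were rich in F13a1, Cbr2 and Ltc4s. F13a1 was at 2122, 3951 and 2906 CPM in cells with Lyve1 on days 8, 10 and 12, against 200, 1141 and 339 CPM in cells without it. Cbr2 was at 107, 511 and 635 CPM, against 29.9, 147 and 68.1 CPM. Ltc4s, which makes leukotriene C4, was at 274 and 194 CPM on days 8 and 10 with Lyve1, against 22.7 and 25.4 CPM without it, and its least fold over the 3 days was 7.56. The 7 cells of day 7 had the same direction, with F13a1 at 3446 CPM, against 180 CPM in cells without Lyve1. The water channel Aqp1 was at 346, 646 and 622 CPM, against 38.5, 183 and 97.5 CPM. Alox5, the enzyme before Ltc4s in leukotriene synthesis, was at 47.7, 165 and 180 CPM, against 10.9, 48.7 and 27.7 CPM. Other genes named by the size rule were Mamdc2, Fxyd2, Cdk15, Tppp, Fcna, Cmah, Ccdc106, Rasgrp3, Rgs7bp and Afap1l1. Of 13 measured long-lived genes, 8 were 2-fold or more higher with Lyve1 on each day (1.28% of all genes) and none lower (1.02%).

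Cells with Lyve1 were poor in Fabp5, Mpeg1, Ccr2 and MHC class II. Fabp5 was at 47.7, 10.8 and 33.1 CPM in cells with Lyve1 on days 8, 10 and 12, against 2308, 536 and 417 CPM in cells without it, 12.2-fold or more lower in each library. Mpeg1, a pore-forming protein of phagocytes, was at 23.8, 45.9 and 67.4 CPM, against 393, 460 and 689 CPM. Cd74 was at 23.8, 7.42 and 155 CPM, against 300, 701 and 932 CPM. These 3 genes were thus lower with Lyve1 in every library compared, and Fabp5 differed between the sides by more than between days 7 and 12. Ccr2 was at 0, 1.35 and 39.0 CPM with Lyve1, against 76.6, 249 and 345 CPM. Vcam1 was at 35.8, 0.675 and 18.9 CPM, against 435, 76.3 and 162 CPM. Other genes on this side were Bcl2a1a, Axl, Il1rn, Spic, Il7r, Clec7a, Mmp12, Pparg, Basp1 and Tnip3. Of 10 measured genes of antigen presentation 4 were 2-fold or more lower on each day and 1, Cd40, was higher. Of 17 lipid genes 5 were lower and 1 higher, against 1.02% and 1.28% of all genes.

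Of 7 other genes of the rule measured, 3 were 2-fold or more higher with Lyve1 on each of days 8, 10 and 12 and none was lower. Their median log2 ratios were 0.44, 0.77 and 1.01 on these days. C1qb differed by less than 2-fold in each library compared. C1qb was at 1789, 1328 and 1339 CPM in cells with Lyve1 on days 8, 10 and 12, against 1696, 981 and 1005 CPM in cells without it. Csf1r was at 715, 1052 and 1154 CPM, against 401, 621 and 563 CPM. Adgre1 was at 620, 1058 and 928 CPM, against 490, 806 and 631 CPM. Of 20 cell division genes, 21 lysosome genes and 19 stress genes, none was 2-fold higher or lower on each day. Of 14 inflammatory genes 1, Il1b, was 2-fold or more lower with Lyve1 on each day and none was higher. Il1b was at 274, 1.35 and 7.10 CPM in cells with Lyve1 on days 8, 10 and 12, against 598, 32.0 and 39.8 CPM in cells without it.

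**Figure D4:**
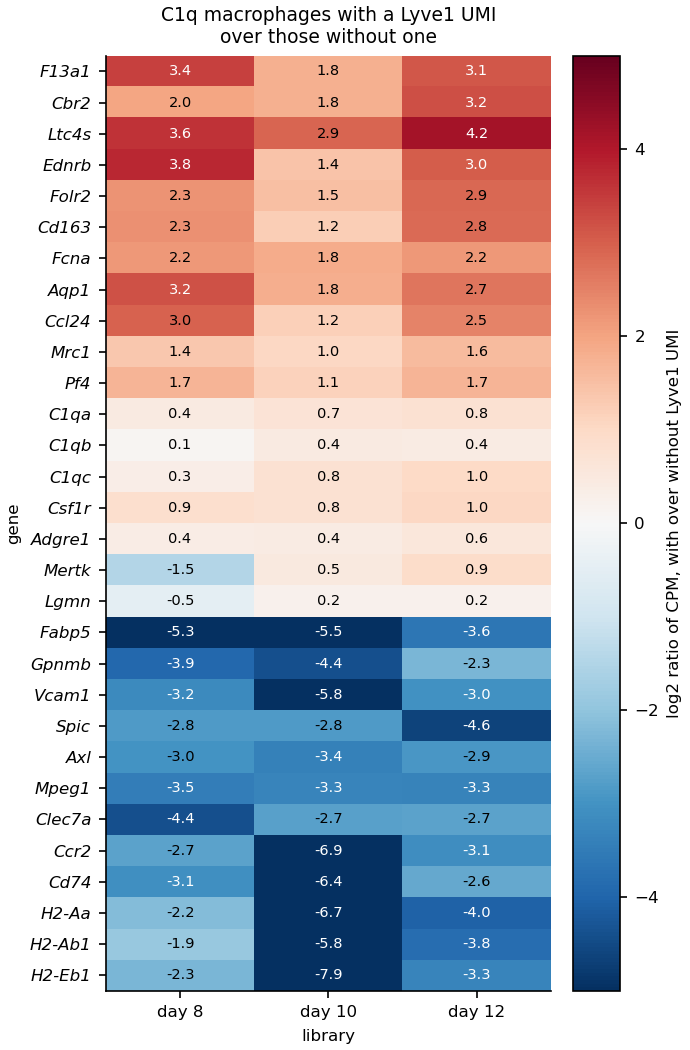
Log2 ratio of CPM in C1q macrophages with a Lyve1 UMI over those without it on days 8, 10 and 12, for genes of the text (colour and printed value). F13a1, Cbr2 and Ltc4s were higher with Lyve1 on each day, Fabp5, Mpeg1, Ccr2 and MHC class II genes were lower, and C1qa, C1qb, C1qc and Adgre1 lay within 2-fold or near it.

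Unsupervised grouping of the 1118 cells gave 9 clusters, whose leading genes are described with no test because the same counts made the clusters. Leading genes had the highest mean log2 ratio to the other C1q macrophages of the same library. Libraries with 10 or more cells inside and outside the cluster were used. Cluster 6, with 209 cells, was led by Tslp, Sult1a1, Ltc4s, Lyve1 and Ednrb, and held Lyve1 at 1635 CPM, F13a1 at 4064 CPM and H2-Aa at 4.3 CPM. Cluster 3, with 238 cells, was led by Tlr1, Clec7a, Slc15a3, Mpeg1 and Nr1h3, and held Lyve1 at 1.1 CPM, H2-Aa at 964 CPM and Ccr2 at 490 CPM. Lyve1 is a gene of the rule and entered the clustering, so these levels are no separate support for the split by Lyve1. Days 10 and 12 gave 99 and 108 cells of cluster 6 and 49 and 182 cells of cluster 3.

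Clusters 0 and 1 came mostly from the early libraries. Cluster 0 had 24, 126, 0 and 0 cells of days 7, 8, 10 and 12 and was led by Il1b, Plbd1, Arl5c, Vegfa and Il7r. Cluster 1 had 25, 110, 1 and 5 cells of days 7, 8, 10 and 12 and was led by Cbr2, Adam19, Cnrip1, Nxpe5 and Pdlim1. Cbr2 led it only within the early libraries. Over all libraries it was at 108 CPM in cluster 1, 177 CPM in the other C1q macrophages and 613 CPM in cluster 6. Il1b was at 1224 CPM in cluster 0 and 146 CPM in cluster 1, while Ccl7 was at 130 CPM in cluster 0 and 1890 CPM in cluster 1, so the early cytokine and chemokine were highest in different cells. Mrc1 was at 443 CPM in cluster 0 and 1854 CPM in cluster 1. A cluster found mostly in early libraries may be those libraries and not a cell type.

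The other clusters were led by division genes or by genes of other lineages. Clusters 4 and 7, with 146 and 34 cells, were led by Cenpe and Pbk, genes of mitosis. They differed in Lyve1, at 9.0 and 1165 CPM, and in H2-Aa, at 576 and 7.2 CPM, so dividing cells lay on both sides of the Lyve1 split. Cluster 2, with 155 cells, was led by the stromal genes Pdgfrl, Scara3, Adamts2, Eln and Aspn. Cluster 5, with 20 cells, was led by erythroid genes, Kel and Rhd among them, and cluster 8, with 25 cells, by the neutrophil genes Wfdc21, Csta3 and Stfa2. C1qa was at 475, 476 and 755 CPM in clusters 2, 5 and 8, against 1308 CPM in cluster 6. Retnla, a secreted protein of alternatively activated macrophages, was at 869 CPM in cluster 4 and at 0 to 71.8 CPM in the others. Only 2.74% of cluster 4 cells had a UMI of it, against 7.18% of cluster 6 cells. The cluster 4 level thus rested on few cells. On day 12 only 3.19% of C1q macrophages had a UMI of it.

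Ccr2 monocytes and osteoclasts of the same libraries were chosen for comparison, as other cells of the myeloid lineage. Monocytes were cells with fewer than 3 of the 8 genes of the rule, Ccr2 and other monocyte genes, so their lack of C1q and the monocyte genes follow from the choice of cells. They were compared on days 10 and 12, with 255 and 470 C1q macrophages against 259 and 856 monocytes. Of 12623 genes, 5.44% were 2-fold or more higher in C1q macrophages in both libraries and 6.08% lower. Cbr2 was at 252 and 166 CPM in C1q macrophages, against 3.43 and 1.96 CPM in monocytes. Ednrb, an endothelin receptor, was at 501 and 210 CPM, against 3.43 and 4.07 CPM. Stab1 was at 334 and 260 CPM, against 9.06 and 5.42 CPM. These 3 genes were at least 36.0-fold higher in both libraries.

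Uptake and lysosome genes were also higher in C1q macrophages than in monocytes. C3ar1 was at 544 and 472 CPM, against 10.3 and 23.4 CPM, Lgmn at 1939 and 1955 CPM, against 98.9 and 188 CPM, and Mertk at 142 and 160 CPM, against 10.0 and 16.0 CPM. Maf was at 1493 and 845 CPM, against 82.2 and 95.2 CPM. Of 15 genes of the long-lived list 11 were higher in both libraries, of 18 lipid genes 10 and of 22 lysosome genes 9, against 5.44% of all genes. MHC class II did not set the groups apart: Cd74 was at 501 and 797 CPM in C1q macrophages, against 566 and 1227 CPM in monocytes. Genes lower in C1q macrophages included Ly6a2, at 3.89 and 6.96 CPM, against 283 and 182 CPM, and Serpinb10, at 1.17 and 4.91 CPM, against 72.7 and 92.1 CPM. Other genes the size rule named as higher were Retnla, Vsig4, Spic, Ccl24, Ccl12, Ccl8, Fcrls, Ltc4s, Fcna, Dppa3, Slco2b1 and Gdf15. Few C1q macrophages carried Retnla, as given above. As lower it named Btla, Cd209d, Cpa3, Cd7, Arhgef37, Cd209a, Pi16 and Trbc2. Lists of other lineages were lower in C1q macrophages too. In both libraries this held for 8 of 10 T and NK cell genes and 9 of 13 neutrophil genes. It also held for 5 of 9 dendritic cell genes and 4 of 6 mast cell and basophil genes, against 6.08% of all genes. The monocyte group thus held RNA of other lineages, such as Mpo at 769 and 470 CPM, whose part in these differences was not tested.

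Osteoclasts, the bone-resorbing cells, were compared on days 8, 10 and 12, with 91, 92 and 889 osteoclasts. They were chosen by UMIs of the osteoclast genes that limit the rule, so their levels of those genes follow from the choice of cells. Of 12341 genes, 6.96% were 2-fold or more higher in C1q macrophages in all 3 libraries and 4.21% lower. Ccl7 was at 880, 362 and 85.1 CPM in C1q macrophages, against 21.6, 9.40 and 1.25 CPM in osteoclasts. C5ar1 was at 154, 248 and 197 CPM, against 4.91, 4.54 and 5.96 CPM. Cx3cr1 was at 420, 245 and 289 CPM, against 6.88, 6.80 and 12.0 CPM. These genes were at least 24.0-fold higher in each library. Mmp9, a matrix protease, was at 30.6, 19.3 and 86.8 CPM in C1q macrophages, against 4459, 2510 and 2751 CPM in osteoclasts, and Mt3 at 1.75, 0.195 and 1.23 CPM, against 597, 109 and 65.3 CPM.

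Some genes did not separate C1q macrophages from osteoclasts. Csf1r was at 413, 746 and 666 CPM, against 646, 520 and 502 CPM in osteoclasts, and Mitf, a transcription factor of both, at 167, 258 and 302 CPM, against 210, 450 and 491 CPM. Tnfrsf11a was at 95.6, 208 and 295 CPM, against 278, 403 and 364 CPM. Of 21 chemokines and receptors 16 were higher in C1q macrophages in each library, of 19 scavenger receptors 15 and of 18 core genes 13, against 6.96% of all genes. Ccl9 was the chemokine lower in C1q macrophages, at 445, 527 and 412 CPM, against 1605, 1101 and 1311 CPM. Other genes the size rule named as higher were Ccl12, Ccl8, Nxpe5, Cd163, Ccl2, Fcrls, Mctp1, Slc9a9, Pld4, Rnase4, Mgl2 and Ms4a6b. As lower it named Nyap2, Oscar, Mst1r, Rufy4, Hs3st4, Bdh2, Cd5 and Lat.

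**Figure D5:**
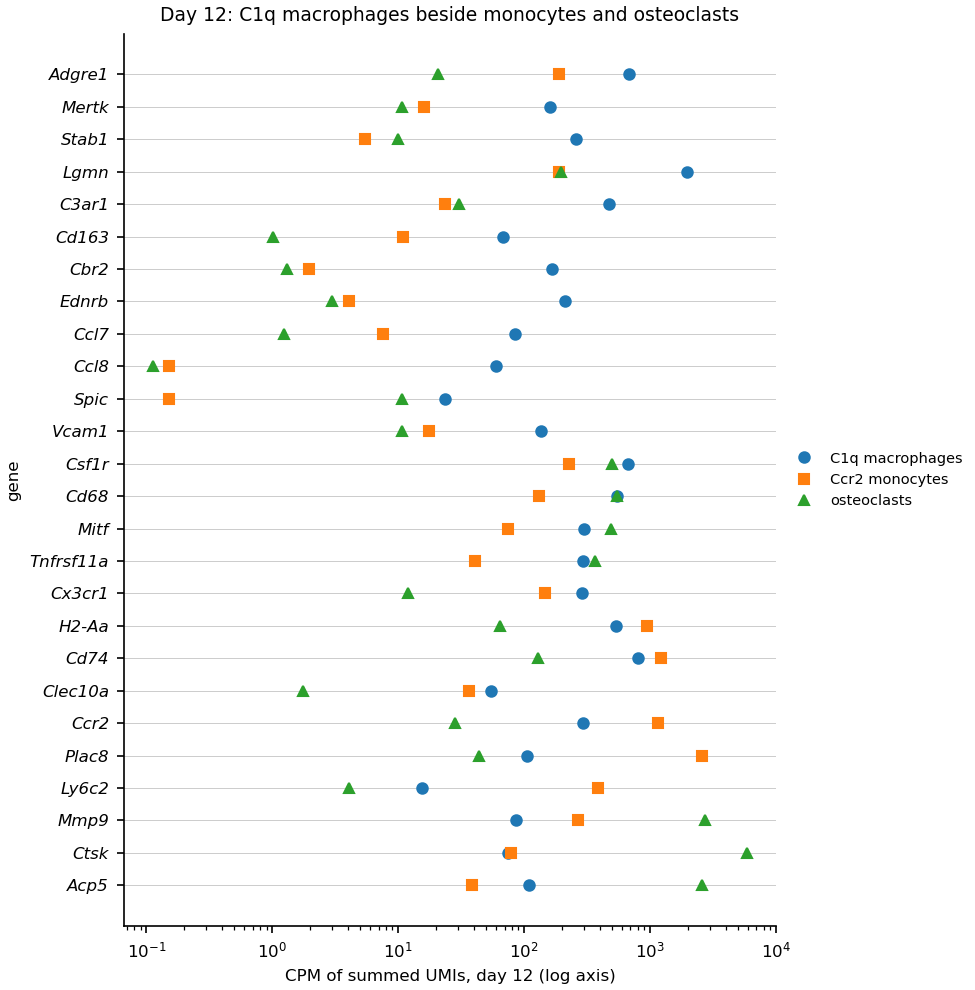
CPM of summed UMIs on day 12 (log axis) in C1q macrophages, Ccr2 monocytes and osteoclasts for genes of the 3 cell types. C1q macrophages had the highest Adgre1, Mertk, Stab1, Lgmn, C3ar1, Cbr2, Ednrb and Ccl7. Monocytes had the highest Ccr2, Plac8 and Ly6c2, and osteoclasts the highest Mmp9, Ctsk and Acp5. Ccr2, Plac8, Ly6c2, Ctsk and Acp5 were used to choose the cells, so their order largely follows from that choice.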

How the data were processed

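Counts of UMIs per gene and cell were deposited by the authors as 1 matrix per library, with 55416 features; libraries were made with a droplet 3' kit, per the labels' protocols, and GRCm39 is named in the submitters' processing notes. For the aligner, counter, annotation and cell calling, nothing is given in the sources used here. Library totals were 44218720, 46534365, 132282322 and 169323978 UMIs on days 7, 8, 10 and 12. The files listed 12886, 12469, 10729 and 18108 barcodes, and 11309, 11464, 10028 and 16254 cells were kept. The members, the 35 gene lists and their choice were made with earlier results of these data known. In the files, 2 list genes were not found. Itgam, Irf8, Igf2, Lilrb4a and Tnfsf12 were found but stood at 0 CPM outside the C1q macrophages in every library. The reason for this was not tested.

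From the counts, UMIs were summed over the C1q macrophages of a library and scaled to a common total to give CPM, with 95% exact Poisson intervals. Shares have 95% Clopper-Pearson intervals, and both cover counting error only. Cells of 1 library share their source, and with 1 library per day no p-value was computed. Log2 ratios had 1 UMI added to each sum. Genes needed 20 UMIs over the sums compared, and called means 2-fold or more, or 1.5-fold for lists. Comparisons with other cells needed 50 cells of both types in a library. Monocytes had a UMI of Ccr2, at least 2 of Ly6c2, Plac8, Ms4a4c and Chil3, fewer than 3 of the 8 genes of the rule and fewer than 5 osteoclast genes; osteoclasts had 5 or more of the 7 osteoclast genes.

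Named genes were list members, the 10 highest and 10 lowest day 12 to day 7 ratios among genes whose late libraries both lay 2-fold beyond both early ones, the 15 highest and 10 lowest against each comparator by their least ratio, and the 5 leading genes of each cluster. The Lyve1 split and its 15 highest and 15 lowest genes were chosen after the data were seen. Predicted genes were counted but not named. Clusters (Leiden, resolution 0.5) used 1938 genes, 20 components and 15 neighbours. No doublet caller was run; leaving out the 6 percent of members with most UMIs was an alternative. The ratio script was tested on simulated data. Python 3.11.15, NumPy 2.4.6, SciPy 1.17.1, pandas 2.3.3, Scanpy 1.11.5 and Matplotlib 3.10.9 were used. Promoters came from RefSeq's GRCm38.p6 table.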

Additional observations from a re-analysis of the deposited data

How the results depend on the processing

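Of 886 values recomputed under 20 settings, 724 stayed within their error or within 1.5 times, 158 moved by more and 4 changed sign. No paired analysis was possible because each day had 1 library, and leaving out a replicate was not possible for the same reason. The causes of the shifts were not tested.

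The share of C1q macrophages on days 8, 10 and 12 was 3.19%, 3.93% and 3.45% with at least 3 of the 8 genes and 2.42%, 2.21% and 2.30% with at least 5. With the rule on cells thinned to 1000 UMIs it was 0.407%, 1.98%, 2.06% and 1.91% on days 7, 8, 10 and 12. Cartilage collagen under 1% gave 2.52% on day 8. Without cells with 3 or more markers of another lineage it was 0, 0.00872%, 0.0399% and 0.0308%, too few cells for day ratios, which were not run. Without cells with 3 or more blood or endothelial markers at 1000 UMIs, added after the data were seen, it was 1.24% on day 10 and 2.42% on day 12.

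Genes 2-fold lower on day 12 numbered 470 with a minimum of 50 UMIs, against 760. The long-lived list's median was 1.15 for days 10 and 12 over days 7 and 8 and 1.16 with day 10 in place of day 12. That of antigen presentation was 0.96 with 5 genes, 0.57 with the thinned rule and 0.95 as a mean over cells. That of the inflammatory list was -2.004 with day 8 in place of day 7 and -0.77 with day 10 in place of day 12, and that of stress genes -0.033 with day 10. Sign changed for the regulatory list with the thinned rule (0.36, against -0.67), the megakaryocyte list with day 10 (0.090, against -1.13), Cxcl2 with day 10 (0.19, against -2.03) and Vcam1 as a mean over cells (0.17, against -1.03). At 3-fold, 344 genes were higher and 351 lower than in monocytes, against 687 and 767, and 472 higher and 220 lower than in osteoclasts, against 859 and 520. With Lyve1 called at full depth 164 genes were higher beside it, against 108, and the day 12 median of antigen presentation was -1.93, or -1.98 with Folr2 as the gene of the split, against -2.66. The day 10 alternatives and those of the Lyve1 split were chosen after the data were seen.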
